A study of Mus musculus with 11 samples.

Results

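The valine and isoleucine tRNAs described here are the 40 genes, of 433 tRNA genes in the count tables, whose name ends in Val or Ile followed by the anticodon. Valine had 23 genes, of which 8 carried the anticodon AAC, 11 CAC, 3 TAC and 1 GAC. Isoleucine had 17 genes, of which 11 carried AAT, 5 TAT and 1 GAT. The members were picked by name alone, and a family below is the sum of all genes with the same amino acid and anticodon.

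Small RNA was sequenced from the frontal lobe of the embryonic brain of C57BL/6 mice, in wild-type (WT) embryos and in embryos labelled NSun2 -/-, written Nsun2-/- below. At embryonic day E18.5 there were 4 Nsun2-/- and 4 WT samples, and at E13.5 there were 2 Nsun2-/- samples and 1 WT sample. No treatment, Cre driver or other allele stands in the labels, and all groups share the strain. The comparison asks whether tRNA-derived reads differ without NSUN2, at each stage and between the stages.

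NSUN2 is an enzyme that places 5-methylcytosine on many tRNAs, mostly in the variable loop, and tRNAs without the mark are cut more readily by the ribonuclease angiogenin. Valine and isoleucine are branched-chain amino acids. Their codons are read by several isoacceptors, tRNAs that carry the same amino acid but differ in anticodon: in ValAAC and IleAAT the first anticodon base, A, is deaminated to inosine, which is read as G after reverse transcription, ValCAC and ValTAC read codons ending in G and A, and IleTAT is the minor tRNA for the isoleucine codon ending in A. Most mouse IleTAT genes contain an intron, which is spliced out of the mature tRNA.

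Total counts over all tRNA genes ran from 4011 to 9827 per sample, so that 3 counts, taken as the smallest number that can be shown, corresponded to 0.0305 to 0.0748% of a sample. The E18.5 Nsun2-/- samples were the shallowest, with 4011 to 5027 counts against 5387 to 5924 in WT. The files hold tRNA genes only, so neither the tissue label nor Nsun2 itself could be checked. The counts of E18.5 Nsun2-/- samples 1 and 2 agreed within sampling noise over all genes (chi-square test, p = 0.93), as did those of samples 2 and 3 (p = 0.86) and of WT samples 3 and 4 (p = 0.41), and all were kept apart as the labels give them. No batch is labelled. In such bulk samples, fewer cells of a type and less RNA per cell cannot be told apart, and the counts do not separate whole tRNAs from their fragments.

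The sequences below show why the valine anticodons and the valine copies are hard to separate by reads. They stand in the lists of fragments that accompany the study, of which only the letters were used and which were read in shortened form, so that a sequence may belong to more genes than are counted here, and capitals mark the anticodon, which in the 5 sequences that follow starts at position 34, counted from 1 at the 5′ end. The first 3 are the common valine 5′ sequence with A, C or G at that position, and the next 2 are those of single copies.
ValAAC, with A (55 nt): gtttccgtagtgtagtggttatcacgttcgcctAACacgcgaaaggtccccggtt
ValCAC (55 nt): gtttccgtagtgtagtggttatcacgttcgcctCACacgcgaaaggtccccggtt
ValAAC and ValCAC, with G (76 nt): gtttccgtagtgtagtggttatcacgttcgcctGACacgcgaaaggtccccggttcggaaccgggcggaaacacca
chr13.trna95-ValAAC (54 nt): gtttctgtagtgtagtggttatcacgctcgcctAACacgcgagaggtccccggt
chr13.trna98-ValCAC (53 nt): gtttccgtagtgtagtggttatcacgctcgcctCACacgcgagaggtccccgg

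Over 55 bases the AAC and CAC sequences differed at 1 position, A34C. The sequence with G, A34G against the first and C34G against the second, was listed under 7 genes, 2 ValAAC and 5 ValCAC, and it ends in the CCA that is added to mature tRNAs. A read with G at this position is therefore 1 mismatch from genes of both families, and the alignment allowed 2. By the study's methods a read that fits several genes equally well was not kept, yet this sequence was listed under several genes. Whether such reads are among the counts of ValAAC and ValCAC cannot be told. Single copies carried bases of their own: chr13.trna95-ValAAC differed from the common ValAAC sequence by C6T, T27C and A43G, and chr13.trna98-ValCAC from the common ValCAC sequence by T27C and A43G.

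ValTAC, the family of the copy called between genotypes below, stood apart from the other valine tRNAs in sequence. Its 5′ and 3′ sequences overlapped by 37 bases and joined to 76 nt ending in CCA, and the 5′ sequence differed from the common ValAAC sequence at 9 of 49 positions.
ValTAC, 5′ (49 nt): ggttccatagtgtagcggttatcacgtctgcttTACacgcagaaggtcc
ValTAC, 3′ (64 nt): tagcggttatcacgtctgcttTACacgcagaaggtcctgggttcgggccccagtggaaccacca
ValTAC, 3′ (42 nt): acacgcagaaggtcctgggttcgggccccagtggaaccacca
chr19.trna110-ValTAC, 3′ (42 nt): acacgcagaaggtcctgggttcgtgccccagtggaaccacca
The first 3 of these were listed under all 3 ValTAC genes, and the last, which differs by G24T within its 42 bases, under chr19.trna110-ValTAC alone. By the study's methods reads with more than 1 best place in the genome were not kept. The listing of the same sequence under all 3 genes, and the multi-mapping option used in counting, go against this. Whether reads shared equally by the 3 copies are among their counts cannot be told, and the values of single ValTAC copies are uncertain to that extent.

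Isoleucine sequences differed from each other in a further way.
IleAAT, middle (29 nt): tggtgctGATaacgccaaggtcgcgggtt
IleAAT, 3′ (41 nt): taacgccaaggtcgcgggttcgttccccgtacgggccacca
chr17.trna516-IleTAT (100 nt): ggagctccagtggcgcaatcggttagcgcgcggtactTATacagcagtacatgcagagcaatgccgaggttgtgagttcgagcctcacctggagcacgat
The IleAAT sequence over the anticodon read GAT, with G in place of the A of the gene name, and the 3′ sequence was listed under 9 IleAAT genes. The IleTAT sequence is 100 nt long, 7 nt longer than the annotated gene of 93 nt, and does not end in CCA. The 11 IleAAT genes are 74 nt long, whereas the 4 IleTAT genes with counts span 93 to 96 nt, and chr1.trna583-IleTAT, with no count, spans 73 nt. Reads were aligned to the genome without gaps, so a read across the splice junction of a mature IleTAT could not be placed, and IleTAT counts rest on reads within one exon or on unspliced RNA.

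Valine and isoleucine tRNAs together made up 7.08 to 9.00% of all tRNA counts in the 11 samples, or 306 to 696 counts. Of the 40 genes, 35 had at least 1 count, 21 were counted in every sample and 12 had a mean of 10 counts or more. Chromosome 13 held 18 of the 40 genes, within 1.59 Mb, and 51.26% of their counts. The order of the families by level was the same in every group from ValCAC (mean 2.76 to 3.46% of all tRNA counts) through ValAAC (1.61 to 1.81%) to ValTAC (0.538 to 0.827%), with IleAAT (0.875 to 1.12%) and IleTAT (1.04 to 1.33%) between the last 2 and overlapping each other. ValGAC and 4 other genes had no count, and IleGAT, chr2.trna1506, had 1 count in a single sample.

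**Figure D1:**
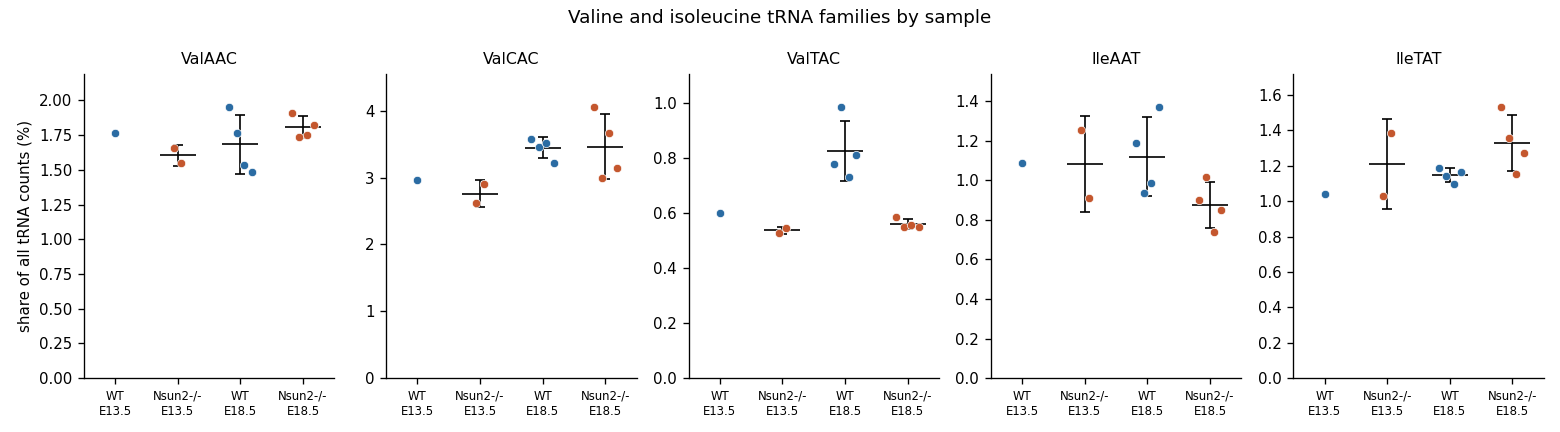
Share of all tRNA counts (%, linear axis from 0, a different range in each panel) taken by the 5 counted valine and isoleucine families in each sample; points are samples, and bars give the mean and SD where a group has more than 1 sample. At E18.5 the 4 Nsun2-/- samples lie between 0.548 and 0.585% for ValTAC, below the 4 WT samples at 0.732 to 0.984%, and in the other families shown the genotypes overlap. ValTAC did not pass in the edgeR fit over all families (adjusted p = 0.053), and how many of all families lie apart was not counted.

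ValTAC counts were lower in every Nsun2-/- sample than in every WT sample at E18.5, and of the 3 gene copies chr19.trna109 was the one tested and called. The family had 26, 26, 28 and 22 counts in the 4 Nsun2-/- samples and 42, 57, 40 and 48 in the 4 WT samples. As shares of all tRNA counts these were 0.560 ± 0.017% against 0.827 ± 0.110% (SD, n = 4 each), with no overlap between the genotypes (exact permutation test, two-sided, p = 0.0286, the smallest that 4 against 4 samples can give). How many of all families lay apart in this way was not counted. In the edgeR fit that follows, 24.4% of 45 families had an unadjusted p under 0.05, which is another criterion and does not give that number. In the fit over all families with edgeR's quasi-likelihood test the log2 fold change was -0.51 (SE 0.17), with an adjusted p of 0.053, which missed the threshold of 0.05. The adjusted p ran from 0.028 to 0.18 over the alternative settings and fell below the threshold in 4 of them, among them the fit without WT sample 3.

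chr19.trna109-ValTAC, at chr19:12086421-12086493 (mm9, plus strand), was the one called between genotypes at E18.5 among the 12 valine and isoleucine copies tested. Its counts were 16, 15, 18 and 14 without NSUN2 and 34, 48, 29 and 38 in WT samples. As shares of all tRNA counts, which allow for the lower depth of the Nsun2-/- samples, these were 0.318 to 0.36% against 0.531 to 0.829%. The log2 fold change was -0.90 (SE 0.20, 0.535-fold), with an adjusted p of 0.0076, and it stayed under the threshold in all 18 alternative settings (adjusted p 0.0028 to 0.049, and 0.014 with close samples merged). Of the 40 members 12 had enough counts to be tested, and this was the 1 that passed, in a comparison in which 10 of 106 genes, or 9.43%, were called and 4, or 3.77%, were called lower; at an unadjusted p under 0.05 there were 19 genes, or 17.9%, and the same 1 member. A single call among 12 is near that background.

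The other ValTAC copies had few counts and no such difference. chrX.trna459-ValTAC, at chrX:157204042-157204114 (mm9, plus strand), had 8, 7, 9 and 7 counts in Nsun2-/- and 6, 8, 10 and 8 in WT samples, and chr19.trna110-ValTAC, the neighbour of chr19.trna109 at chr19:12086756-12086828 (mm9, plus strand), had 1 to 4 and 1 to 2. Both were below the minimum for the test; with no filter their log2 fold changes were 0.29 (SE 0.37, adjusted p = 0.91) and 0.71 (SE 0.76, adjusted p = 0.84). Together they took 0.214 ± 0.018% of counts in Nsun2-/- and 0.169 ± 0.023% in WT samples (p = 0.0857 in the exact permutation test; SD, n = 4 each).

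Within the ValTAC family the share of chr19.trna109 was 57.7 to 64.3% in the 4 Nsun2-/- samples and 72.5 to 84.2% in the 4 WT samples. The means were 61.8 ± 3.0% and 79.2 ± 4.9%, and an exact permutation test gave p = 0.0286 (SD, n = 4 each). The share of chrX.trna459 was 30.4 ± 2.4% against 17.5 ± 5.1% (exact permutation test, p = 0.0286). Shares within a family must rise where that of chr19.trna109 falls, so this is not a separate result. In the test of copies against the rest of their family (edgeR's diffSpliceDGE) with no filter, the differences were -0.37 (SE 0.23) for chr19.trna109 and 0.82 (SE 0.38) for chrX.trna459 on the log2 scale, with adjusted p of 0.99 and 0.79, so a change of balance among the copies was not detectable over all genes at this depth.

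**Figure D2:**
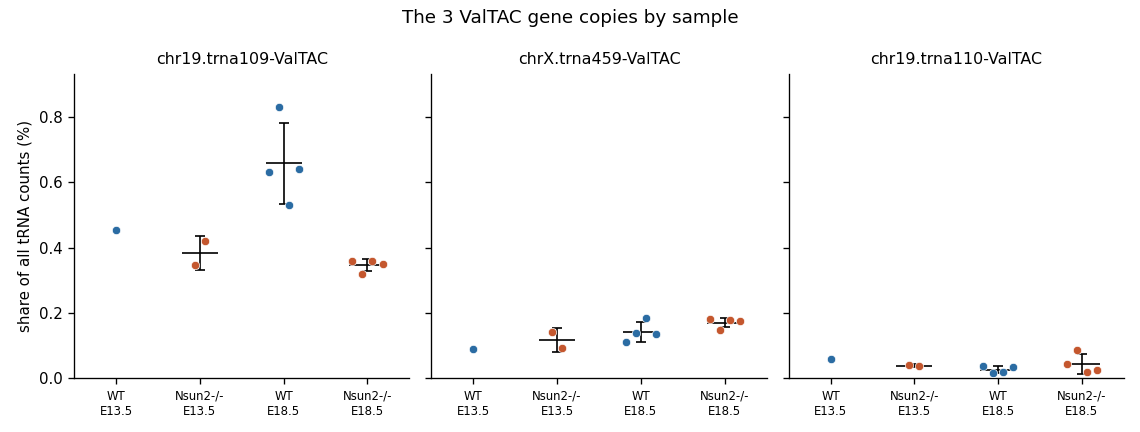
Share of all tRNA counts (%, one linear axis from 0 for all panels) taken by the 3 ValTAC copies in each sample; points are samples, and bars give the mean and SD where a group has more than 1 sample. For chr19.trna109 the E18.5 WT samples lie between 0.531 and 0.829% and the Nsun2-/- samples between 0.318 and 0.360%, while chrX.trna459 and chr19.trna110 overlap between genotypes.

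ValAAC and ValCAC, the 2 abundant valine families, did not pass the test between genotypes at E18.5. ValAAC had 85, 82, 88 and 73 counts in Nsun2-/- and 105, 102, 84 and 88 in WT samples, which are 1.81 ± 0.080% and 1.68 ± 0.21% of all counts (SD, n = 4 each). Its log2 fold change was 0.16 (SE 0.11, approximate 95% interval -0.06 to 0.38, adjusted p = 0.45). ValCAC had 180, 141, 184 and 126 counts against 193, 200, 192 and 191, with a wide spread among the Nsun2-/- samples, at 3.46 ± 0.49% against 3.44 ± 0.16%. Its log2 fold change was 0.07 (SE 0.10, interval -0.12 to 0.26, adjusted p = 0.74), and its sign turned under upper-quartile scaling (-0.01).

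Few copies supplied most of the valine counts. chr1.trna710-ValCAC, at chr1:173041574-173041646 (mm9, plus strand), was the most counted member, with 76, 62, 90 and 59 counts in Nsun2-/- and 93, 100, 103 and 89 in WT samples at E18.5, where it took 45.5 ± 3.0% and 49.6 ± 3.0% of its family (SD, n = 4 each). Its log2 fold change was -0.09 (SE 0.12, adjusted p = 0.80). chr13.trna97-ValCAC (chr13:23391991-23392063, mm9, plus strand) had 22 to 31 counts in Nsun2-/- and 33 to 41 in WT samples, and the counts of chr13.trna98-ValCAC (chr13:23399498-23399570, mm9, plus strand) were 15 to 29 and 17 to 27. After scaling for depth their log2 fold changes were -0.13 (SE 0.16) and 0.24 (SE 0.23), in opposite directions and each within 2 SE of 0.

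In the ValAAC family, chr13.trna95 (chr13:23390650-23390722, mm9, plus strand) had 40, 38, 37 and 36 counts in Nsun2-/- and 43, 55, 38 and 42 in WT samples at E18.5. chr13.trna974 (chr13:22107660-22107732, mm9, minus strand) had 34, 32, 33 and 26 against 45, 31, 35 and 37. As shares of all counts both overlapped between genotypes, with log2 fold changes of 0.10 (SE 0.15) and 0.09 (SE 0.17), which turned to -0.02 and -0.04 under upper-quartile scaling. Within ValAAC, chr13.trna95 took 46.2% of counts in Nsun2-/- and 47.0% in WT samples and chr13.trna974 38.0 and 39.2%, while chr11.trna208 (chr11:48670139-48670211, mm9, plus strand), under which the sequence with G was listed, had 4 to 12 and 5 to 10 counts.

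The log2 fold changes of the 2 counted isoleucine families had opposite signs at E18.5, and neither passed the test. IleAAT had 40, 48, 37 and 34 counts in Nsun2-/- and 64, 54, 54 and 81 in WT samples, or 0.875 ± 0.117% against 1.12 ± 0.20% (SD, n = 4 each), and the genotypes overlapped as shares. Its log2 fold change was -0.30 (SE 0.16, interval -0.61 to 0.01, adjusted p = 0.26). IleTAT had 68, 64, 58 and 51 counts against 64, 66, 60 and 69, or 1.33 ± 0.16% against 1.15 ± 0.038%. For IleTAT the log2 fold change was 0.26 (SE 0.12, interval 0.02 to 0.51, adjusted p = 0.20). In this comparison edgeR called 6 of 45 families, or 13.3%, and 0 of the 5 tested valine and isoleucine families; 2 of the 5 had an unadjusted p under 0.05, against 24.4% of all families, and DESeq2 called 0 of them.

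Log2 fold changes of the 5 isoleucine copies that could be tested had the sign of their family, with wide errors. These copies supply most of the counts summed in their families, so the shared sign is not separate evidence. In IleAAT, the log2 fold changes were -0.44 (SE 0.24) for chr11.trna393 (chr11:68850505-68850578, mm9, plus strand), -0.46 (SE 0.35) for chr13.trna990 (chr13:21947189-21947262, mm9, minus strand) and -0.24 (SE 0.31) for chr13.trna92 (chr13:22121092-22121165, mm9, plus strand). Of these, chr13.trna990 varied most among samples of a group, with 7 to 17 counts in Nsun2-/- and 10 to 30 in WT. In IleTAT, chr13.trna987 (chr13:21988807-21988900, mm9, minus strand) had 36, 31, 27 and 21 counts against 35, 25, 33 and 34, a log2 fold change of 0.19 (SE 0.19). chr17.trna516 (chr17:84261284-84261376, mm9, plus strand), whose 100 nt sequence is shown above, had 29, 28, 27 and 26 counts against 25, 34, 25 and 29, a log2 fold change of 0.30 (SE 0.17). All 5 had an adjusted p of 0.33 or more, and chr7.trna156-IleTAT (chr7:29158018-29158112, mm9, plus strand), at 2 to 7 counts, was below the minimum for the test and had a log2 fold change of -0.07 (SE 0.54) with no filter, a sign opposite to that of its family.

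**Figure D3:**
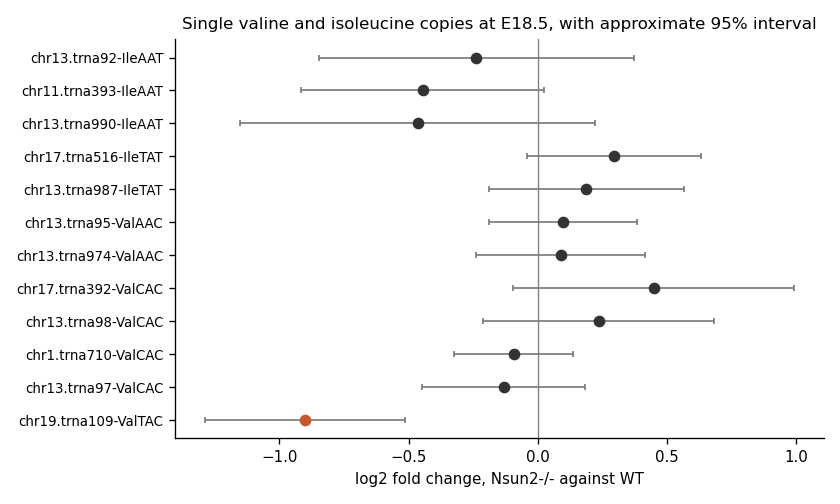
Fitted log2 fold change (horizontal axis, Nsun2-/- against WT at E18.5) with its approximate 95% interval for the 12 valine and isoleucine copies with enough counts to be tested. chr19.trna109-ValTAC, in orange, is at -0.90 and the one copy with an adjusted p under 0.05; the intervals of the other 11 reach across 0.

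Anticodon balance, the division of an amino acid's counts among its isoacceptors, does not depend on the total of the other tRNAs and was followed by sample. The ratio of IleTAT to IleAAT counts at E18.5 was 1.70, 1.33, 1.57 and 1.5 in Nsun2-/- samples, and it was 1.00, 1.22, 1.11 and 0.852 in WT. IleTAT was thus above IleAAT in every Nsun2-/- sample and near it in WT. The means were 1.53 ± 0.15 and 1.05 ± 0.16 (SD, n = 4 each), and the samples did not overlap (exact permutation test on log2 ratios, p = 0.0286). That is the smallest p that 4 against 4 samples can give. Neither family passed in the fit over all amino acids given below (diffSpliceDGE, adjusted p = 0.27 for IleAAT and 0.40 for IleTAT). As a share of isoleucine counts, IleTAT was 60.1 ± 2.2% in Nsun2-/- and 50.9 ± 3.9% in WT samples. IleTAT counts rest on reads within an exon or on unspliced RNA, as given above, and IleAAT counts do not. The ratio and the share therefore need not be those of the mature tRNAs. At E13.5 the ratio of the lone WT sample was 0.959 and those of the 2 Nsun2-/- samples were 0.821 and 1.52, so that the Nsun2-/- samples lay on both sides of WT.

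Among the valine anticodons, the share of ValTAC was the one that did not overlap between the genotypes at E18.5, though it did not pass in the fit over all amino acids given below. It took 8.94, 10.4, 9.33 and 9.96% of valine counts in the E18.5 Nsun2-/- samples and 12.4, 15.9, 12.7 and 14.7% in the WT samples. The ratio of ValTAC to ValCAC was 0.164 ± 0.019 against 0.240 ± 0.035, and that of ValTAC to ValAAC 0.310 ± 0.008 against 0.495 ± 0.073, without overlap (exact permutation test, p = 0.0286 for both; SD over n = 4 each). At E13.5 the share of valine counts was 11.02 and 10.95% in Nsun2-/- and 11.3% in WT, values between the E18.5 groups.

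The remaining 2 of the 5 ratios compared did not separate the genotypes. Of those that did, 2 share the ValTAC counts and are not separate results. How often such ratios lie apart among the other amino acids was not counted. ValCAC to ValAAC was 1.91 ± 0.22 in Nsun2-/- and 2.06 ± 0.20 in WT samples (exact permutation test, p = 0.343), and all valine to all isoleucine counts was 2.66 ± 0.38 and 2.65 ± 0.34 (exact permutation test, p = 0.971; SD, n = 4 each). In the fit over all amino acids (diffSpliceDGE, 36 families tested, 1 called, or 2.78%) no valine or isoleucine anticodon passed: the log2 difference from the other isoacceptors was -0.53 (SE 0.17, adjusted p = 0.089) for ValTAC, -0.32 (SE 0.15, adjusted p = 0.27) for IleAAT and 0.25 (SE 0.13, adjusted p = 0.40) for IleTAT. ValTAC and IleAAT had unadjusted p of 0.005 and 0.048, and 16.7% of all families had one under 0.05. Within families, 11 copies were tested and none was called, where 2 of 90 over all tRNAs, or 2.22%, were called. None of the 11 had an unadjusted p under 0.05, against 8.89% of all. No ValTAC copy was among the 11, because chr19.trna109 alone passed the filter in that family, so this result does not cover it. With no filter the same test gave an unadjusted p of 0.12 for chr19.trna109 and 0.032 for chrX.trna459. DESeq2 offers no such test.

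**Figure D4:**
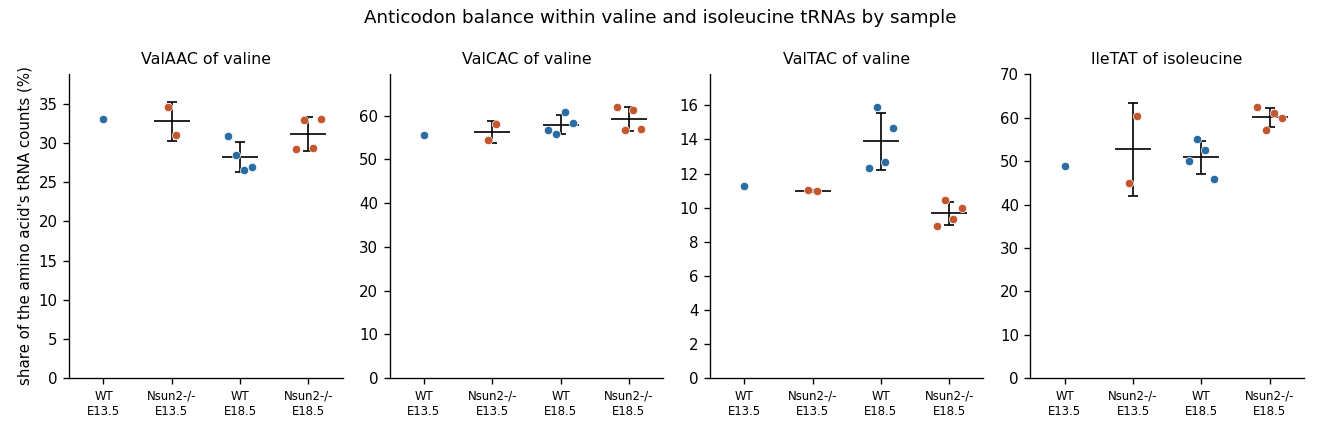
Share of valine counts taken by ValAAC, ValCAC and ValTAC, and share of isoleucine counts taken by IleTAT (%, linear axes from 0, a different range in each panel), in each sample; bars give the mean and SD where a group has more than 1 sample. At E18.5 the genotypes are apart for ValTAC (8.94 to 10.4% against 12.4 to 15.9%) and IleTAT (57.1 to 62.4% against 46.0 to 55%) and overlap for ValAAC and ValCAC. No valine or isoleucine anticodon passed in the fit over all amino acids, and IleTAT counts rest on reads within an exon or on unspliced RNA.

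At E13.5 no difference between genotypes was detectable among valine or isoleucine tRNAs, but with 2 Nsun2-/- samples and 1 WT sample the test assumes that the lone WT sample varies like the other groups. None of 155 copies (0%) and none of 47 families (0%) was called with edgeR or DESeq2, where 12 copies (7.74%) and 7 families (14.9%) had an unadjusted p under 0.05, none of them among the 15 copies and 5 families of valine and isoleucine that were tested. chr19.trna109-ValTAC had 34 and 23 counts in Nsun2-/- and 31 in WT, a log2 fold change of -0.28 (SE 0.33, interval -0.93 to 0.37). The ValTAC family had 52 and 30 against 41 counts, a log2 fold change of -0.10 (SE 0.29, interval -0.66 to 0.47). The intervals include both 0 and the values at E18.5. For IleTAT the change was 0.24 (SE 0.23) and for IleAAT 0.11 (SE 0.24), and ValAAC and ValCAC were at -0.06 (SE 0.18) and -0.04 (SE 0.17).

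The difference between the stages in the effect of genotype was tested directly, and no member passed (1 of 155 copies, or 0.645%, and 2 of 47 families, or 4.26%, were called in all). For chr19.trna109-ValTAC the E18.5 effect minus the E13.5 effect was -0.62 (SE 0.39, adjusted p = 0.61) and for the ValTAC family -0.43 (SE 0.34, adjusted p = 0.65) on the log2 scale. For IleAAT it was -0.44 (SE 0.29, adjusted p = 0.57), and for ValAAC, ValCAC and IleTAT it was 0.19, 0.08 and -0.003. No member had an unadjusted p under 0.05, which 9.68% of copies and 14.9% of families had, and DESeq2 called none, so the lower ValTAC at E18.5 is not shown to differ from E13.5.

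Between E13.5 and E18.5, 1 of the 15 tested copies was called, in Nsun2-/- brains. chr17.trna392-ValCAC, at chr17:59208131-59208203 (mm9, plus strand), had 12 and 9 counts in the E13.5 Nsun2-/- samples and 24, 14, 13 and 14 in those at E18.5. Because the E13.5 samples were deeper, this was 0.143 ± 0.030% (n = 2) against 0.361 ± 0.125% (SD, n = 4) of all counts, with no overlap. The log2 fold change was 1.25 (SE 0.37, adjusted p = 0.018); 1 of 15 tested members was called, and in all 25 of 155 copies, or 16.1%, of which 11, or 7.1%, were higher. At an unadjusted p under 0.05 there were 2 of the 15, against 28.4% of all copies. Neither number of members is above the share over all copies. The call was lost with DESeq2 (adjusted p = 0.075), without E13.5 Nsun2-/- sample 1 (0.29) and without E18.5 Nsun2-/- sample 1 (0.089), the sample with 24 counts. In WT the copy had 9 counts at E13.5 and 17, 18, 10 and 15 at E18.5, a log2 fold change of 0.86 (SE 0.51, adjusted p = 0.25). The change between stages in Nsun2-/- minus that in WT was 0.39 (SE 0.67, adjusted p = 0.89). The rise is thus not shown to be particular to Nsun2-/-.

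The member with the next lowest p was a copy of the same family. chr1.trna710-ValCAC took 1.089 and 1.095% of counts in the E13.5 and 1.31 to 1.79% in the E18.5 Nsun2-/- samples, without overlap but with an adjusted p of 0.08 (log2 fold change 0.41, SE 0.16), and was at 1.23% in the E13.5 WT sample against 1.502 to 1.89% in the E18.5 WT samples (0.33, SE 0.20, adjusted p = 0.26). For the ValCAC family the log2 fold changes were 0.26 (SE 0.12, adjusted p = 0.13) in Nsun2-/- and 0.18 (SE 0.15, adjusted p = 0.39) in WT.

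No family passed between stages in either genotype, where 7 of 47 (14.9%) were called in Nsun2-/- and 14 of 47 (29.8%) in WT, and DESeq2 called no valine or isoleucine family either. In Nsun2-/- brains 2 of the 5 families, IleAAT and ValCAC, had an unadjusted p under 0.05 (29.8% of all families), and in WT none had (36.2%). IleAAT was at -0.43 (SE 0.19, adjusted p = 0.12) in Nsun2-/- and 0.01 (SE 0.23) in WT, and ValTAC at -0.01 (SE 0.22) and 0.43 (SE 0.26, adjusted p = 0.21). These 2 contrasts share samples with those between genotypes, so they are not separate evidence on E18.5. None of the 15 tested copies was called in WT, where 30 of 155 (19.4%) were, 1 of the 15 had an unadjusted p under 0.05 (31.6% of all copies), and DESeq2 called none.

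**Figure D5:**
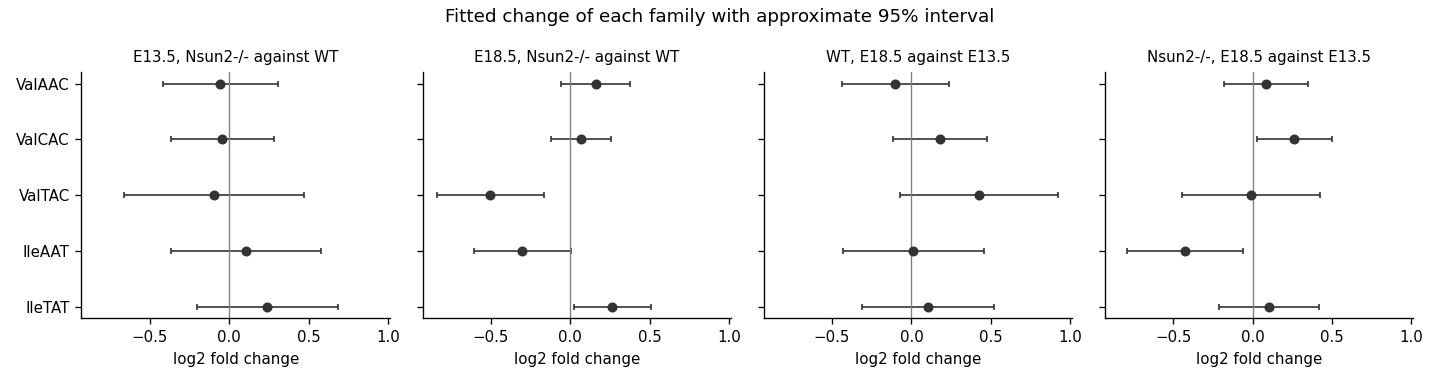
Fitted log2 fold change with its approximate 95% interval (horizontal axis, one scale for all panels) of the 5 counted families in the contrasts between genotypes (left) and between stages (right). ValTAC at E18.5 is at -0.51 between genotypes, and no family in any panel has an adjusted p under 0.05.

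Related families were followed in the same E18.5 fit, in 3 groups. Among the 6 other families whose anticodon starts with A, read as inosine (AlaAGC, ArgACG, LeuAAG, ProAGG, SerAGA and ThrAGT), 5 were tested, 1 was higher and 0 lower in Nsun2-/-; the one that rose was ProAGG, with a log2 fold change of 0.55 (SE 0.16, adjusted p = 0.024). Of the leucine families, the third branched-chain amino acid, 4 of 5 were tested and none was called. Among the other families with intron-containing genes (ArgTCT, LeuCAA and TyrGTA), ArgTCT rose, with a log2 fold change of 0.33 (SE 0.10, adjusted p = 0.039), 1 of 3 tested. LeuAAG and LeuCAA stand in 2 of these groups each. Over the 18 alternative settings the adjusted p ran from 0.0073 to 0.17 for ProAGG and from 0.023 to 0.21 for ArgTCT, so that the calls were lost in 8 and 11 of them. Both were lost without Nsun2-/- sample 1, 2 or 3, without WT sample 1, and with DESeq2, library size only and upper-quartile scaling; ProAGG was also lost without WT sample 2 and ArgTCT without WT sample 3, with close samples merged, with 10 counts in every sample and with DESeq2 size factors. The medians of the groups were 0.05, -0.12 and 0.04, against 0.07 for valine and isoleucine and 0.03 for all 45 families. In the other contrasts, 0 of these families were called between genotypes at E13.5. Between stages, ArgACG and ProAGG were lower and LeuCAA was higher at E18.5 in WT (log2 fold changes -0.50, -0.67 and 0.74), ArgTCT was lower in both genotypes (-0.61 in WT and -0.51 in Nsun2-/-), and the effect of genotype on ProAGG was 0.94 higher at E18.5 than at E13.5 (SE 0.26, adjusted p = 0.026). That last call was lost in 12 of 19 alternative settings (adjusted p 0.0096 to 0.37), namely DESeq2, its size factors, no filter, upper-quartile scaling and the fits without either E13.5 Nsun2-/- sample, without E18.5 Nsun2-/- sample 1, 2 or 3 or without E18.5 WT sample 1, 2 or 4. The change of ProAGG between stages in WT was lost without E18.5 Nsun2-/- sample 2 and without E18.5 WT sample 2, and the other stage calls of these families kept an adjusted p under 0.05 throughout.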

How the data were processed

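tRNA libraries were made from the brain frontal lobe for the 11 samples, and the study's methods call the replicates independent and biological. Per the file headers and the study's methods, the authors trimmed adapters, aligned reads of 20 to 200 nt with bowtie (at most 2 mismatches, reads with 1 best place kept), aligned the rest again with CCA ends cut off, and counted with featureCounts 1.4.4 over intervals 20 nt longer than the tRNA gene on both sides, with multi-mapping and overlap options and no strand option; the deposited values are these raw counts per gene. Reads from either strand and from overlapping intervals cannot be told apart. The submitters' processing notes and the methods name mm10, but the annotation in the headers is mm9 and only 3 of 433 positions (0 of 40 here) match GRCm38 tRNA genes of RefSeq, so positions are given as mm9.

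Counts were used as deposited; no row lacked a gene. Genotypes were compared at E18.5 over those 8 samples and at E13.5, between stages and for their interaction over all 11, with edgeR 4.0.16 (R 4.3.3; TMM, filterByExpr with a minimum count of 10, glmQLFit and glmQLFTest), separately for genes and for family sums. P-values were adjusted by Benjamini-Hochberg over all genes or families tested, and a call is an adjusted p under 0.05; SE is the log2 fold change over the square root of F, and approximate 95% intervals are normal. Balance was tested with diffSpliceDGE. Shares and ratios were compared with exact two-sided permutation tests (scipy 1.17.1); their depth is that of the counts, and counts of PCR reads without molecular identifiers make intervals and floors cover counting error only. On 10 simulated data sets of the E18.5 comparison, 200 genes were changed by a log2 fold of 1 in each, with a common spread for all genes. With 108 genes tested on average, 94.0% of the changed genes that were tested were recovered, and 4.1% of calls were false. Far more genes were changed there than were called in the data, so these rates may not hold for the data. The alternatives were 3 other scalings, no filter or 10 counts in every sample, DESeq2 1.42.0, a replicate block, close samples merged, all 11 samples in the E18.5 fit, genes with identical counts taken once, and each sample left out.

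Named copies are those called in any contrast and, in each family, the up to 3 with the highest mean share. Members, lists and tests were chosen with earlier results of these data known. The authors' fragment tables served for sequences alone; they are held in shortened form, so no overlap was tested.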

Additional observations from a re-analysis of the deposited data

Results flagged for a closer look

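Among 52 groups of 4 samples examined, 4 values lay far from the rest of their group by Dixon's criterion, which sets apart about 1 in 20 groups by chance. Valine and isoleucine tRNAs together took 8.997% of counts in E18.5 Nsun2-/- sample 1, against 7.63 to 7.86% in the other 3 Nsun2-/- samples. chrX.trna459-ValTAC took 0.148% (7 counts) in E18.5 Nsun2-/- sample 2, the lowest of its group, in which the counts were 7 to 9. IleGAT, and with it its single gene chr2.trna1506, took 0.022% in E18.5 Nsun2-/- sample 1, which is 1 count where all other samples had 0. No cause of these values was tested.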

How the results depend on the processing

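At E18.5, chr19.trna109-ValTAC kept its call in every alternative and was the one member called in each. ValTAC as a family passed with DESeq2 size factors, library size only and all 11 samples in the fit (1 family called in each), and 0 to 1 when a sample was left out (1 without WT sample 3). For copies between stages in Nsun2-/-, 0 were called with 10 counts in every sample and DESeq2, 2 with DESeq2 size factors, close samples merged and library size only, and 0 to 2 with a sample left out; the second was chr1.trna710-ValCAC (without Nsun2-/- E18.5 sample 2, the E13.5 WT sample or WT E18.5 sample 1 or 4), which was also the 1 copy called in WT when WT E18.5 sample 4 was left out (otherwise 0). In the setting with 10 counts in every sample, chr17.trna392-ValCAC was not tested, as it had 9 counts in the E13.5 WT sample. ValCAC was the 1 family called between stages in Nsun2-/- with library size only. Without the E13.5 WT sample, the contrasts that need it could not be fitted.

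Some log2 fold changes changed sign, all with an adjusted p of 0.68 or more. Under upper-quartile scaling these were chr13.trna95-ValAAC (-0.021), chr13.trna974-ValAAC (-0.035) and ValCAC (-0.007) at E18.5, IleAAT at E13.5 (-0.002), and by stage ValTAC in Nsun2-/- (0.011), IleAAT in WT (-0.046) and the IleTAT interaction (0.07). ValCAC at E13.5 was 0.014 with DESeq2 and 0.01 with its size factors. With 10 counts in every sample, library size only and no filter, ValTAC by stage in Nsun2-/- was 0.015, 0.064 and 0.02, and the IleTAT interaction 0.089, 0.039 and 0.049. IleAAT by stage in WT was -0.054 with 10 counts, -0.029 with samples merged and -0.01 with no filter, and the IleTAT interaction 0.022 with samples merged. Leaving out a sample gave -0.133 to 0.379 for chr17.trna392-ValCAC, -0.153 to 0.255 for IleAAT and -0.13 to 0.067 for ValCAC at E13.5, -0.049 to 0.105 for ValCAC at E18.5, -0.168 to 0.311 for IleTAT and -0.068 to 0.044 for ValTAC by stage in Nsun2-/-, -0.106 to 0.078 for IleAAT by stage in WT, and -0.273 to 0.206 for IleTAT and -0.027 to 0.189 for ValCAC in the interaction. The causes were not tested.

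The shared replicate numbers were not taken to pair the E18.5 samples, since not every same-numbered pair correlated above 0.1: the correlations of deviations were -0.119 to 0.243, over 0.1 in 3 of 4 pairs. As a hint from the data, 5 of 8 samples correlated best with their own number. With the replicate block, chr19.trna109-ValTAC was at -0.89 (adjusted p = 0.049), calls over all genes went from 10 to 3 (2.83% in place of 9.43%), and ValTAC by stage in Nsun2-/- (0.034), ValAAC by stage in WT (0.026) and the IleTAT interaction (0.048) changed sign. Over all genes at E18.5, calls numbered 4 to 10 without the block, with 4 under upper-quartile scaling and without Nsun2-/- sample 3, and that scaling moved the median of all genes by -0.12 and the split from 6 higher and 4 lower to 1 and 3; of families, 1 (upper quartile) to 7 were called, and the split of 5 higher and 1 lower became 3 and 2 with library size only and 4 and 2 with DESeq2 size factors. At E13.5, 3 families were called without Nsun2-/- sample 1 (otherwise 0), and the interaction gave 0 to 4 families and 0 to 2 copies. By stage, DESeq2 called 13 copies in Nsun2-/- and 19 in WT where edgeR called 25 and 30, and 9 were called in Nsun2-/- without E13.5 sample 1; library size only gave 14 higher and 11 lower in Nsun2-/- (edgeR with TMM 11 and 14) and 15 and 17 in WT (9 and 21), with the median in WT moved by 0.127, and of families 5 and 4 in Nsun2-/- (2 and 5). At 22 to 57 ValTAC counts per sample, counting error limits what can be seen in its copies.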
